A study of Homo sapiens with 346 samples.

Results

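The 10 RNAs described here are long noncoding RNAs of 3 kinds, taken by name from the gene tables: the nuclear-retained RNAs MALAT1 and NEAT1, the 7 small nucleolar RNA (snoRNA) host RNAs GAS5, SNHG1, SNHG5, SNHG6, SNHG8, ZFAS1 and EPB41L4A-AS1, and the imprinted RNA H19. All 10 were listed in both tables, among 28806 genes in HCT-116 cells and 29551 in HepG2-labelled cells. Smart-seq2, a protocol that makes whole-length cDNA from RNA with a poly(A) stretch, was run on single cells of 2 established human lines: HCT-116, a colorectal carcinoma line, and cells labelled HepG2, known as a liver carcinoma line. Both lines were grown in the same medium, and cells were taken either live or after fixation in 80% methanol and storage at -80 °C for 1 week. The tables hold 91 live and 92 fixed HCT-116 cells and 68 live and 83 fixed HepG2-labelled cells, 334 of the 346 cells that were labelled. The question was which of these RNAs kept their level and their share of cells after fixation, and whether RNAs held in the nucleus differed in this from spliced host RNAs.

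MALAT1 lies at nuclear speckles and ends in a triple helix in place of a poly(A) tail, and NEAT1 is the scaffold of paraspeckles, nuclear bodies that hold RNA-binding proteins. A snoRNA host gene carries snoRNAs in its introns. The snoRNAs guide the modification of ribosomal RNA, while the spliced host RNA leaves the nucleus and is often short-lived. Many host genes start transcription at a run of pyrimidines (C or T), as ribosomal protein genes do, a start known as the 5′ terminal oligopyrimidine motif.

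The start sites of the hosts and of MALAT1 are shown because they are the feature through which host genes are usually grouped with ribosomal protein genes. Each line gives 20 bases before and 50 bases from the annotated start on, as transcribed, from RefSeq (GRCh38.p14), and capitals mark the longest run of C and T in that window.
GAS5: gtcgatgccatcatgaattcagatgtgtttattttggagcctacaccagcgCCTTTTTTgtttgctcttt
SNHG1: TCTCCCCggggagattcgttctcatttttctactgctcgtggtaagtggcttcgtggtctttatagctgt
SNHG5: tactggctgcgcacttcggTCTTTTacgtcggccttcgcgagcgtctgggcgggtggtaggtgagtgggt
SNHG8: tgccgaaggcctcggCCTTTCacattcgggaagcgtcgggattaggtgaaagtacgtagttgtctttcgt
ZFAS1: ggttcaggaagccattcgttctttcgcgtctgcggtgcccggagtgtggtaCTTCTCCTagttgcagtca
EPB41L4A-AS1: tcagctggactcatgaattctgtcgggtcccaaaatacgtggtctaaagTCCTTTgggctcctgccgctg
MALAT1: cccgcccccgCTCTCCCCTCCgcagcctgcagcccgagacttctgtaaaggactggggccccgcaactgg
These windows are chr1:173868996-173869065 (minus strand) for GAS5, chr11:62855836-62855905 (minus) for SNHG1, chr6:85678684-85678753 (minus) for SNHG5, chr4:118278742-118278811 (plus) for SNHG8, chr20:49278622-49278691 (plus) for ZFAS1, chr5:112160506-112160575 (plus) for EPB41L4A-AS1 and chr11:65497718-65497787 (plus) for MALAT1, where 2 starts are listed and the first is shown. A C followed by at least 4 pyrimidines stood exactly at the annotated start of SNHG5 and ZFAS1 and not at that of the other hosts shown; 4.07% of the 35116 promoters had it there, searched on the transcribed strand. The longest run was 8 bases in GAS5 and ZFAS1, a length that 25.97% of all windows reached, and 6 to 7 bases in the other hosts. In MALAT1 the longest run was 11 bases, reached by 8.58% of windows. These runs were not all at the start. Counted from the annotated start, the run began at base 32 in GAS5 and ZFAS1 and at base 30 in EPB41L4A-AS1. In SNHG1 it began 20 bases before the start. Only 1 start was listed for GAS5, which has 50 RefSeq transcripts, and for ZFAS1, which has 5. The RefSeq range of the ZFAS1 gene begins upstream of the window shown, at chr20:49278178. The table holds 8 of the 10 RNAs, H19 among them, and NEAT1 and SNHG6 are named only.

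A stretch in the 3′ part of MALAT1 is shown because the cDNA of Smart-seq2 is started from a run of A. MALAT1 (GRCh38, chr11, gene at chr11:65497738-65506516, plus strand) has 1 run of 10 or more A in its reference transcript (GENCODE release 44, a single exon of 10.4 kb), printed in capitals with 20 bases on each side, at chr11:65506078-65506130.
MALAT1 A run: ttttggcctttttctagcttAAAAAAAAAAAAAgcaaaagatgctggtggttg
This run is 13 bases long, at bases 8459 to 8471 of the 10434 in that transcript. The gene range given above is from RefSeq and is shorter, 8779 bases. The single-exon NEAT1 reference transcript (22.7 kb, chr11:65422798-65445540) has 5 such runs, the longest of 22 bases. Among the hosts, SNHG6 and ZFAS1 have 1 each and the other 5 have none. Whether priming at these runs differed between live and fixed cells was not tested.

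Depth, taken from the spacing of the transcript values, had a median of 2.5 M (mega) reads for a live HCT-116 cell and 1.8 M for a fixed one, and of 2.4 M and 2.0 M for HepG2-labelled cells. TPM is abundance per transcript length, scaled within each cell. Ribosomal RNA took on average 25.6% of a live HCT-116 cell's TPM and 7.78% of a fixed cell's, and 5.52% and 2.33% in HepG2-labelled cells. A smaller ribosomal share scales up the TPM of all other genes in fixed cells. The median log2 change of all genes at a mean of 1 TPM or more was 0.17 in HCT-116 and 0.15 in HepG2-labelled cells. That of genes at 100 TPM or more was 0.33 and 0.37. With ribosomal RNA left out and each cell set to the same total, the medians of all genes were -0.15 and -0.03. In HepG2-labelled cells this shift is larger than the ribosomal shares give, so the deposited totals of live and fixed cells differed there. In HepG2-labelled cells 1 live and 1 fixed column held equal values, and 6 fixed columns were very alike (r above 0.95). The label HepG2 goes against the markers: 0 of 17 hepatocyte markers were above 1 TPM in 50% of these cells or more, and albumin, AFP and APOB were not listed, so they are called HepG2-labelled throughout. Each line and treatment was treated as 1 sample, since the labels do not place HepG2-labelled cells in an experiment, fixed libraries were made later than live ones, and fixation and library batch cannot be told apart; no p-value was computed, and SDs are over cells.

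In HCT-116 MALAT1 was the RNA whose mean TPM differed most between live and fixed cells, as a ratio and in TPM, whereas in HepG2-labelled cells its log2 ratio of 0.15 in the deposited TPM was the smallest in size of the 10. In live HCT-116 cells it ranged from 47.9 to 1261 TPM with a median of 335 and a mean of 388 ± 246 TPM (SD, n = 91 cells). In fixed HCT-116 cells it ranged from 7.63 to 3102 TPM with a median of 917 and a mean of 986 ± 547 (n = 92). The groups overlapped at both ends, but the upper quartile of the live cells (504 TPM) lay below the lower quartile of the fixed cells (584 TPM). Of the 92 fixed cells, 87 were above the median live cell and 19 were above the highest live cell.

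The mean was 2.54-fold higher in fixed HCT-116 cells, a log2 ratio of 1.34, and 98.5% of the genes at 1 TPM or more had a lower ratio. MALAT1 was the only one of the 9 RNAs tested in this line past 2-fold (H19 was below 1 TPM), beside 2.99% of all genes that were 2-fold higher and 8.84% that were 2-fold lower. The log2 ratio was 1.03 with ribosomal RNA left out and 1.16 in cells paired on total reads, and it stayed past 2-fold under all 6 alternatives. Over the cells of a group, MALAT1 hardly followed depth: Spearman's rho with total reads was 0.07 over live HCT-116 cells and -0.15 over fixed ones.

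In HepG2-labelled cells MALAT1 had nearly the same middle in both groups. Live cells ranged from 36.1 to 1240 TPM with a median of 436 and a mean of 475 ± 257 (n = 68). Fixed cells ranged from 2.41 to 2570 TPM with a median of 430 and a mean of 528 ± 422 (n = 83). The fixed cells spread further to both sides, with a coefficient of variation of 0.80 against 0.54, and 41 of the 83 lay above the median live cell. The log2 ratio of means was 0.15, and it went below 0 (lowest -0.16) with medians, means of logs or either rescaling, so no direction can be given.

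Cells with little MALAT1 were rare in every group. Below 50 TPM, a limit chosen after the values were seen, were 1 of 91 live and 2 of 92 fixed HCT-116 cells, and 1 of 68 live and 3 of 83 fixed HepG2-labelled cells, where 1 live and 1 fixed cell are the columns of equal values. The sum of the 7 host RNAs was 825 TPM in the live HCT-116 cell and 1318 and 1320 TPM in the fixed HCT-116 cells, below the medians of 1400.1 TPM and 1832 TPM of their groups. It was 1358 to 2027 TPM in the HepG2-labelled cells, where the medians were 1105 TPM live and 1489 TPM fixed. Their total reads were 0.8 to 4.4 M.

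NEAT1 was a low RNA in both lines, with a mean TPM far below that of MALAT1 in every group. In HCT-116 it ranged from 0.07 to 121.98 TPM in live cells (median 4.20, mean 7.33 ± 14.4) and from 0 to 84.5 TPM in fixed cells (median 5.73, mean 8.56 ± 10.9). Its HepG2-labelled cells ran from 0.48 to 37.8 TPM live (median 6.71, mean 7.90 ± 6.40) and from 0.20 to 64.9 TPM fixed (median 5.61, mean 9.13 ± 10.4). The groups overlapped almost fully. A single live HCT-116 cell held 18.3% of that group's summed TPM, and without it the mean was 6.05.

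For NEAT1 the log2 ratio of the means was 0.22 in HCT-116 and 0.21 in HepG2-labelled cells, close to the median of all genes, and it changed sign with the scaling in HCT-116 (-0.09 without ribosomal RNA) and in HepG2-labelled cells (-0.04 by median ratio). NEAT1 was detected (TPM above 0) in every cell but 1, a fixed HCT-116 cell. Above 1 TPM it was seen in 91.2% of the live and 86.96% of the fixed HCT-116 cells, with exact 95% intervals of 83.4 to 96.1% and 78.3 to 93.1% that cover counting error only. In HepG2-labelled cells these shares were 98.5% (92.1 to 100%) and 92.8% (84.9 to 97.3%).

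NEAT1 has a long and a short isoform, of which the long one builds the paraspeckle. In the transcript tables, whose CPM values are read counts scaled to each cell's total reads and not divided by length, the long transcript had a mean of 68.7 CPM live and 90.8 CPM fixed in HCT-116 and of 100.4 and 134.1 CPM in HepG2-labelled cells. The short transcript, whose sequence lies within the long one, had 9.40 and 11.9 CPM in HCT-116 and 10.4 and 7.17 CPM in HepG2-labelled cells. It was above 0 in 49 of 91 live and 54 of 92 fixed HCT-116 cells, and in 41 of 68 live and 38 of 83 fixed HepG2-labelled cells. Reads shared by the isoforms were divided by the authors' quantification, so these values depend on it, and no transcript of MALAT1 was matched in those tables.

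**Figure D1:**
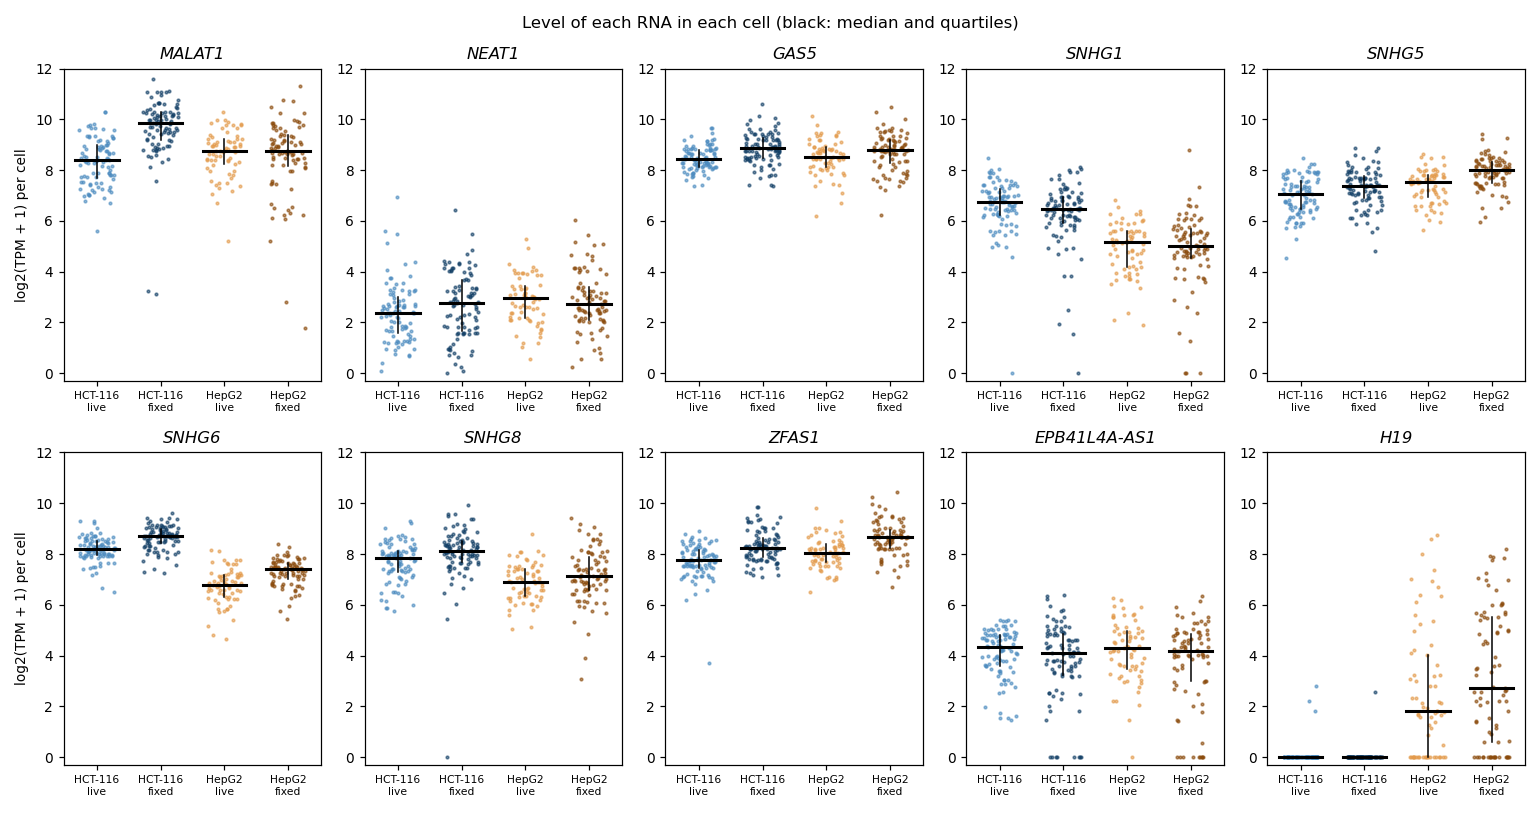
Level of each of the 10 RNAs in every cell, as log2(TPM + 1), in the 4 groups; each point is a cell, the black bar is the median and the black line spans the quartiles. Fixed HCT-116 cells sit above live ones for MALAT1, SNHG1 and SNHG6 sit lower in HepG2-labelled cells, and H19 is at 0 in nearly all HCT-116 cells.

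The snoRNA hosts were abundant in all groups and none of the 7 was past 2-fold in either line. In HepG2-labelled cells none of the 10 RNAs was, all of them at 1 TPM or more, where 4.89% of all genes were 2-fold higher and 9.76% 2-fold lower. Of the hosts, 6 had a higher mean in fixed cells in each line: all but SNHG1 in HCT-116 and all but EPB41L4A-AS1 in HepG2-labelled cells, but with ribosomal RNA left out EPB41L4A-AS1 was also lower in HCT-116. The median log2 ratio of the 7 was 0.43 in HCT-116 and 0.45 in HepG2-labelled cells, beside 0.33 and 0.37 for all genes at 100 TPM or more. Without ribosomal RNA the HCT-116 median was 0.13, beside 0.02 for all genes at 100 TPM or more. In HepG2-labelled cells it was 0.11 both by median-ratio rescaling and in cells paired on total reads. Genes at 100 TPM or more had 0.17 and 0.52 there, above the hosts. Whether the hosts lay above or below other abundant genes thus depended on the setting. The summed TPM of the 7 hosts was 1418 ± 331 live and 1878 ± 535 fixed for HCT-116, and 1184 ± 406 and 1586 ± 652 for HepG2-labelled cells.

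GAS5, whose introns carry many box C/D snoRNAs, had the highest mean of the hosts in all 4 groups. In HCT-116 it ranged from 163.7 to 817 TPM live (median 348, mean 373 ± 130) and from 163.2 to 1557 TPM fixed (median 465, mean 506 ± 227). Among HepG2-labelled cells the values went from 72.4 to 1114 TPM live (median 370, mean 404 ± 185.8) and from 73.8 to 1450 TPM fixed (median 447, mean 472 ± 237). The lowest cells were alike in live and fixed groups while the highest were higher in the fixed ones. The log2 ratio was 0.44 in HCT-116, above 0 under all alternatives, and 0.22 in HepG2-labelled cells, where it was -0.07 at its lowest, and GAS5 was the highest host in 52, 48, 53 and 47 cells of live HCT-116, fixed HCT-116, live HepG2-labelled and fixed HepG2-labelled cells.

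ZFAS1, transcribed antisense to ZNFX1 and host of box C/D snoRNAs, had the largest ratio of mean deposited TPM of the hosts in both lines. In HCT-116 it ranged from 12.2 to 481 TPM live (median 214, mean 229 ± 88.2) and from 136.5 to 934 TPM fixed (median 304, mean 348 ± 166.05). HepG2-labelled cells held from 89.2 to 887 TPM live (median 264, mean 287 ± 131.5) and from 102.3 to 1372 TPM fixed (median 402, mean 442 ± 225). The log2 ratios were 0.60 and 0.62, above 0 under all alternatives (lowest 0.30 and 0.18), and 77 of 92 and 69 of 83 fixed cells lay above the live median. The 0.18 was in HepG2-labelled cells paired on total reads, where SNHG6 had 0.44, SNHG5 0.31 and all genes at 1 TPM or more a median of 0.23. With medians SNHG6 was slightly above ZFAS1 in both lines, 0.533 against 0.512 in HCT-116 and 0.609 against 0.606 in HepG2-labelled cells. Of its 5 listed transcripts the highest, NR_003604, had 39.4 CPM live and 72.3 CPM fixed in HCT-116 and 66.3 and 118.2 CPM in HepG2-labelled cells; the libraries carry no strand, so reads of ZFAS1 and ZNFX1 in the same place cannot be told apart, and the same holds for EPB41L4A-AS1 and MALAT1 with the RNA of their opposite strand.

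SNHG6 was even between cells, with coefficients of variation of 0.30 to 0.47. In HCT-116 it ranged from 88.96 to 623 TPM live (median 290, mean 306 ± 98.7) and from 153.4 to 791 TPM fixed (median 419, mean 419 ± 127.2). In the other line the range went from 24.3 to 285 TPM live (median 109.7, mean 118.4 ± 55.1) and from 42.7 to 336 TPM fixed (median 167.4, mean 164.7 ± 54.9). The log2 ratios of 0.46 and 0.48 were above 0 under all alternatives, at their lowest 0.15 and 0.25.

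SNHG5, host of a pair of box C/D snoRNAs, ranged in HCT-116 from 22.5 to 351 TPM live (median 131.6, mean 142.8 ± 70.5) and from 27.2 to 463 TPM fixed (median 164.9, mean 177.6 ± 88.9). The HepG2-labelled range went from 48.6 to 396 TPM live (median 183.5, mean 180.8 ± 77.6) and from 61.6 to 677 TPM fixed (median 257, mean 263 ± 111.4). The log2 ratio was 0.31 in HCT-116, where it was 0.003 without ribosomal RNA, and 0.54 in HepG2-labelled cells, where the lowest was 0.28.

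SNHG8, host of an H/ACA snoRNA, ranged in HCT-116 from 52.4 to 634 TPM live (median 227, mean 231 ± 114.7) and from 0 to 975 TPM fixed (median 281, mean 311 ± 165.8). For HepG2-labelled cells the span went from 31.8 to 438 TPM live (median 118.9, mean 133.9 ± 71.6) and from 7.48 to 684 TPM fixed (median 141.1, mean 182.6 ± 132.3). The middle of the HepG2-labelled groups was close and the upper tail of the fixed cells longer. The log2 ratios were 0.43 and 0.45, above 0 under all alternatives in HCT-116 and down to -0.08 in HepG2-labelled cells.

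SNHG1, host of several box C/D snoRNAs, was the host that went the other way in HCT-116. It ranged there from 0 to 359 TPM live (median 104.99, mean 116.1 ± 62.5) and from 0 to 279 TPM fixed (median 86.3, mean 96.4 ± 59.3). Its HepG2-labelled cells ran from 2.75 to 112.8 TPM live (median 34.7, mean 36.4 ± 22.9) and from 0 to 441 TPM fixed (median 31.1, mean 42.7 ± 52.2). The groups overlapped over nearly their whole range. The log2 ratio in HCT-116 was -0.27, below 0 under all alternatives (-0.57 to -0.10), and 32 of 92 fixed cells were above the live median. In HepG2-labelled cells it was 0.23 with a lowest value of -0.19, and 1 fixed cell held 12.4% of the group's summed TPM, without which the mean was 37.9. In fixed HCT-116 cells SNHG1 had the highest rho with total reads of the 10 RNAs, 0.36. With HCT-116 cells paired on total reads its log2 ratio was -0.10, the smallest in size of all settings. Beyond this pairing, the part of depth in the HCT-116 difference was not tested.

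EPB41L4A-AS1, an antisense RNA that hosts an H/ACA snoRNA, was the lowest of the hosts, and it was missed in more of the fixed cells. It ranged in HCT-116 from 1.75 to 41.4 TPM live (median 19.1, mean 19.5 ± 10.6) and from 0 to 83.1 TPM fixed (median 15.9, mean 19.9 ± 17.3). Among HepG2-labelled cells the values went from 0 to 76.1 TPM live (median 18.5, mean 23.1 ± 17.3) and from 0 to 81.4 TPM fixed (median 17.3, mean 19.7 ± 16.2). The fixed groups were wider at both ends in HCT-116, and the means were 0.03 apart in log2, with a range of -0.59 to 0.05 over the alternatives; in HepG2-labelled cells the log2 ratio was -0.23 and below 0 under all of them.

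EPB41L4A-AS1 was detected in 91 of 91 live HCT-116 cells (exact interval 96.03 to 100%) and in 84 of 92 fixed ones (91.3%, 83.6 to 96.2%). In HepG2-labelled cells it was detected in 67 of 68 live (98.5%, 92.1 to 100%) and 74 of 83 fixed cells (89.2%, 80.4 to 94.9%). With cells paired on total reads the shares for HCT-116 were 100% live and 94.3% fixed, and those for HepG2-labelled cells 100% and 89.5%. Fixed cells also had fewer genes detected of all those listed. The median per cell was 12031 live and 10359 fixed in HCT-116 and 13887 and 12293 in HepG2-labelled cells. The other 6 hosts were detected in all cells of a group or in all but 1, except SNHG1, found in 80 of 83 fixed HepG2-labelled cells.

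**Figure D2:**
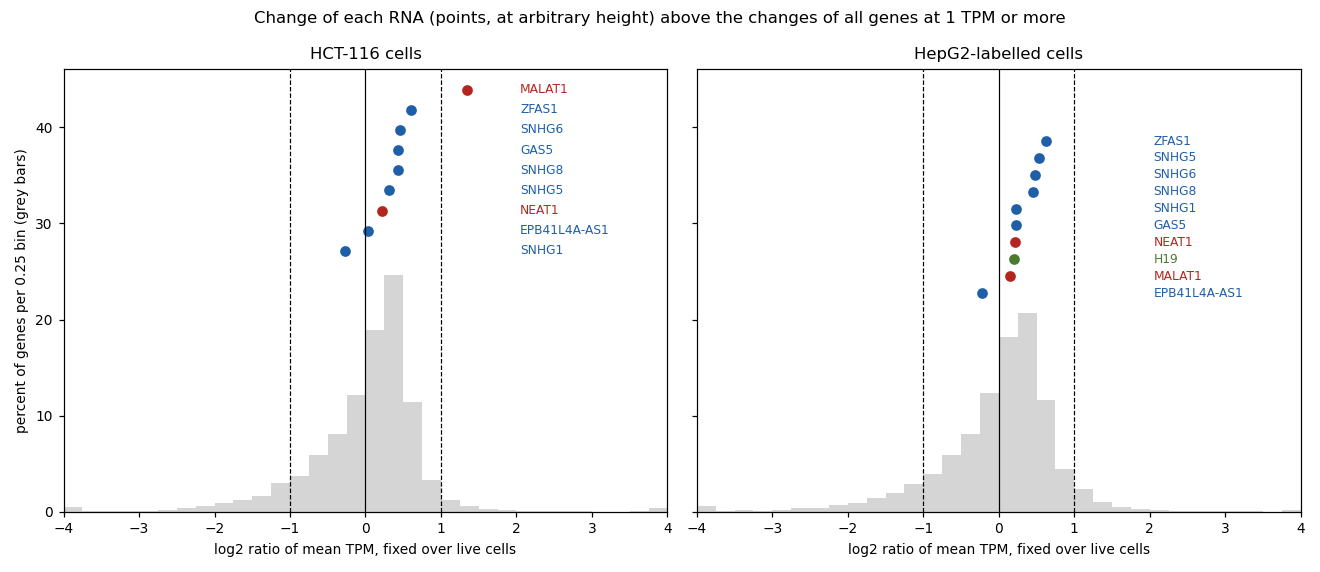
Log2 ratio of mean TPM of fixed to live cells for each RNA (points, in order of size and at arbitrary height; red nuclear-retained, blue snoRNA hosts, green H19) above the percent of all genes at 1 TPM or more in bins of 0.25 (grey; ratios beyond 4 stand in the end bins), with 2-fold as dashed lines. MALAT1 at 1.34 in HCT-116 is the only point past 2-fold, and the other points lie within the bulk of all genes.

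The ratio of nuclear-retained to host RNA within a cell was taken as the log2 of MALAT1 plus NEAT1 over the sum of the 7 hosts, with 1 TPM added to both. Apart from the added 1 TPM, it does not depend on how the cell was scaled. Its median differed between treatments in opposite directions in the lines. The median for live HCT-116 cells was -2.10 (quartiles -2.66 and -1.32), against -0.94 once fixed (-1.58 and -0.60), a difference of 1.16. In HepG2-labelled cells it was -1.25 live (-1.90 and -0.93) and -1.69 fixed (-2.48 and -0.93), a difference of -0.43. The ranges between the quartiles overlapped in both lines, from -1.58 to -1.32 in HCT-116 and over a wider span in HepG2-labelled cells.

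Hosts outweighed the nuclear-retained pair in most cells. The pair was higher in 0 of 91 live and 7 of 92 fixed HCT-116 cells and in 2 of 68 live and 1 of 83 fixed HepG2-labelled cells. With MALAT1 alone the differences were 1.18 and -0.44, and with NEAT1 alone 0.043 and -0.59, so the HCT-116 difference was there with MALAT1 and not with NEAT1. With cells paired on total reads they were 0.86 and -0.28. Whether the lines differed in this beyond the spread between cultures was not tested, as each group was treated as 1 sample.

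**Figure D3:**
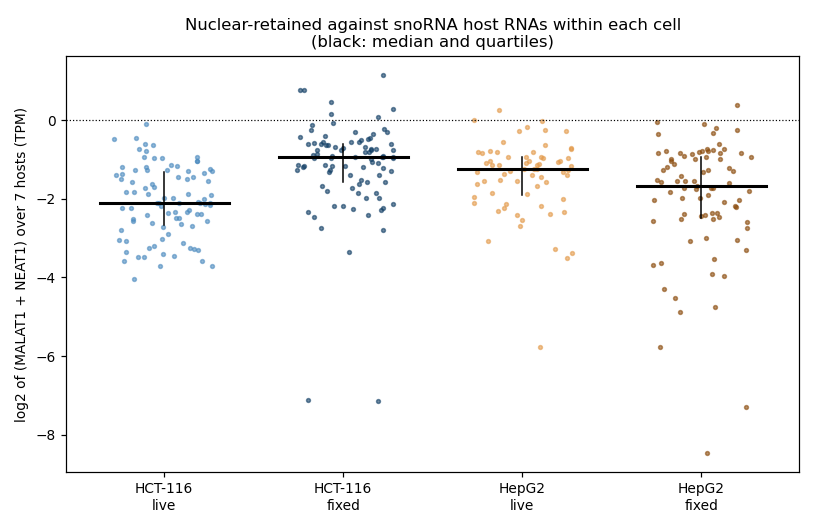
Log2 of MALAT1 plus NEAT1 over the 7 snoRNA hosts in each cell (TPM, 1 added to both), in the 4 groups; points are cells, the black bar is the median and the black line spans the quartiles. From left to right the medians are -2.10, -0.94, -1.25 and -1.69.

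Between the lines, SNHG1 and SNHG6 were the hosts that differed most. SNHG1 was 3.19-fold lower in live HepG2-labelled cells than in live HCT-116 cells and 2.26-fold lower in the fixed ones, and SNHG6 was 2.58-fold and 2.55-fold lower. Both were past 2-fold in live and in fixed cells, where 18.7% and 18% of genes were 2-fold lower and 22% in both treatments were 2-fold higher. The lines came from separate tables of the same pipeline, and both differences stayed past 2-fold without ribosomal RNA and by median ratio over both lines. Among pairs of 1 cell of each line, the HepG2-labelled cell had more SNHG6 in 3.91% of live and 2.92% of fixed pairs.

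SNHG8 was 1.73-fold and 1.71-fold lower in live and fixed HepG2-labelled cells. The log2 difference of SNHG5 was 0.34 live and 0.56 fixed, and that of ZFAS1 was 0.33 and 0.35, both higher in HepG2-labelled cells under all scalings. The log2 difference of GAS5 was 0.11 live and -0.10 fixed, and its sign depended on the scaling, with 0.36 live and 0.03 fixed by median-ratio rescaling over both lines. MALAT1 was 0.29 higher in live and 0.90 lower in fixed HepG2-labelled cells on the log2 scale.

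**Figure D4:**
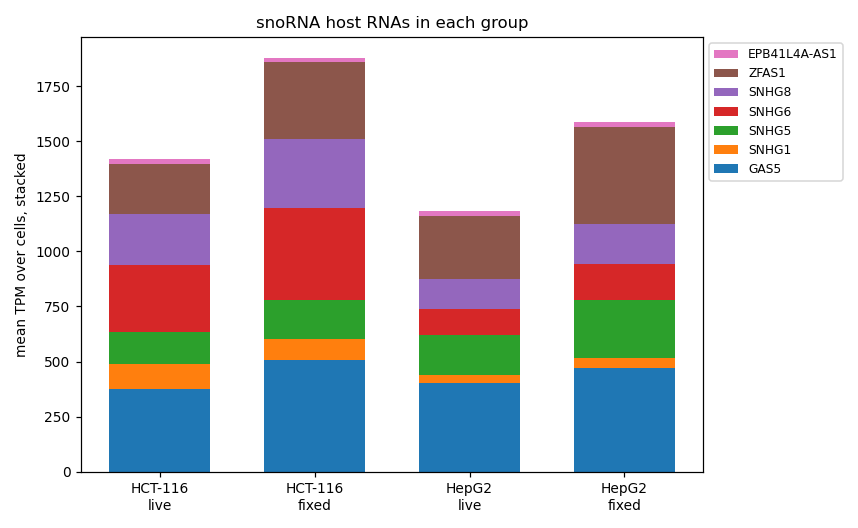
Mean TPM of the 7 snoRNA hosts over the cells of each group, stacked. From left to right the sums are 1418, 1878, 1184 and 1586 TPM, with GAS5 the largest part and the SNHG1 and SNHG6 parts smaller in HepG2-labelled cells.

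H19, an imprinted RNA expressed from the maternal copy and high in fetal liver, was seen almost only in HepG2-labelled cells, where cells differed by a wide margin. In HCT-116 it was detected in 3 of 91 live cells (3.30%, exact interval 0.69 to 9.33%) and 1 of 92 fixed cells (1.09%, 0.03 to 5.91%), with at most 6.0 TPM, and no ratio is given there. In HepG2-labelled cells 47 of 68 live cells had it (69.1%, 56.7 to 79.8%), as did 64 of 83 when fixed (77.1%, 66.6 to 85.6%). Levels ranged there from 0 to 431 TPM live (median 2.50, mean 31.6 ± 79.6) and from 0 to 289 TPM fixed (median 5.58, mean 36.4 ± 62.8).

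The mean of H19 rested on few cells. The 7 live cells above 100 TPM held 73.7% of the summed TPM of their group, and the 10 fixed cells above 100 TPM held 61.4%. The live and fixed groups overlapped over their whole range. The log2 ratio of the means was 0.20, but it was -0.57 by median-ratio rescaling and 1.13 with medians, the setting under which it passed 2-fold, so no direction is given. The 6 very similar fixed columns had 35.03 to 62.4 TPM of H19, and without them the log2 ratio was 0.17.

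Across the cells of a group the hosts went together only weakly. The median Spearman's rho over the 21 pairs of hosts was 0.15 for live HCT-116, 0.21 for fixed HCT-116, 0.34 for live HepG2-labelled and 0.36 for fixed HepG2-labelled cells. GAS5 and ZFAS1 had 0.36, 0.50, 0.51 and 0.62 in live HCT-116, fixed HCT-116, live HepG2-labelled and fixed HepG2-labelled cells. The median rho of SNHG1 to the other 6 hosts was 0.16, -0.04, -0.03 and 0.08 in the same order, near that of all host pairs in live HCT-116 cells and below it in the other groups. The points are cells that share a library preparation, depth and scaling, so these are descriptions.

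MALAT1 went with NEAT1 (0.45, 0.26, 0.46 and 0.48 in the same order of groups) and against SNHG1 (-0.33, -0.39, -0.20 and -0.20). The median rho of MALAT1 with the 7 hosts was 0.02, 0.10, 0.21 and 0.10.

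**Figure D5:**
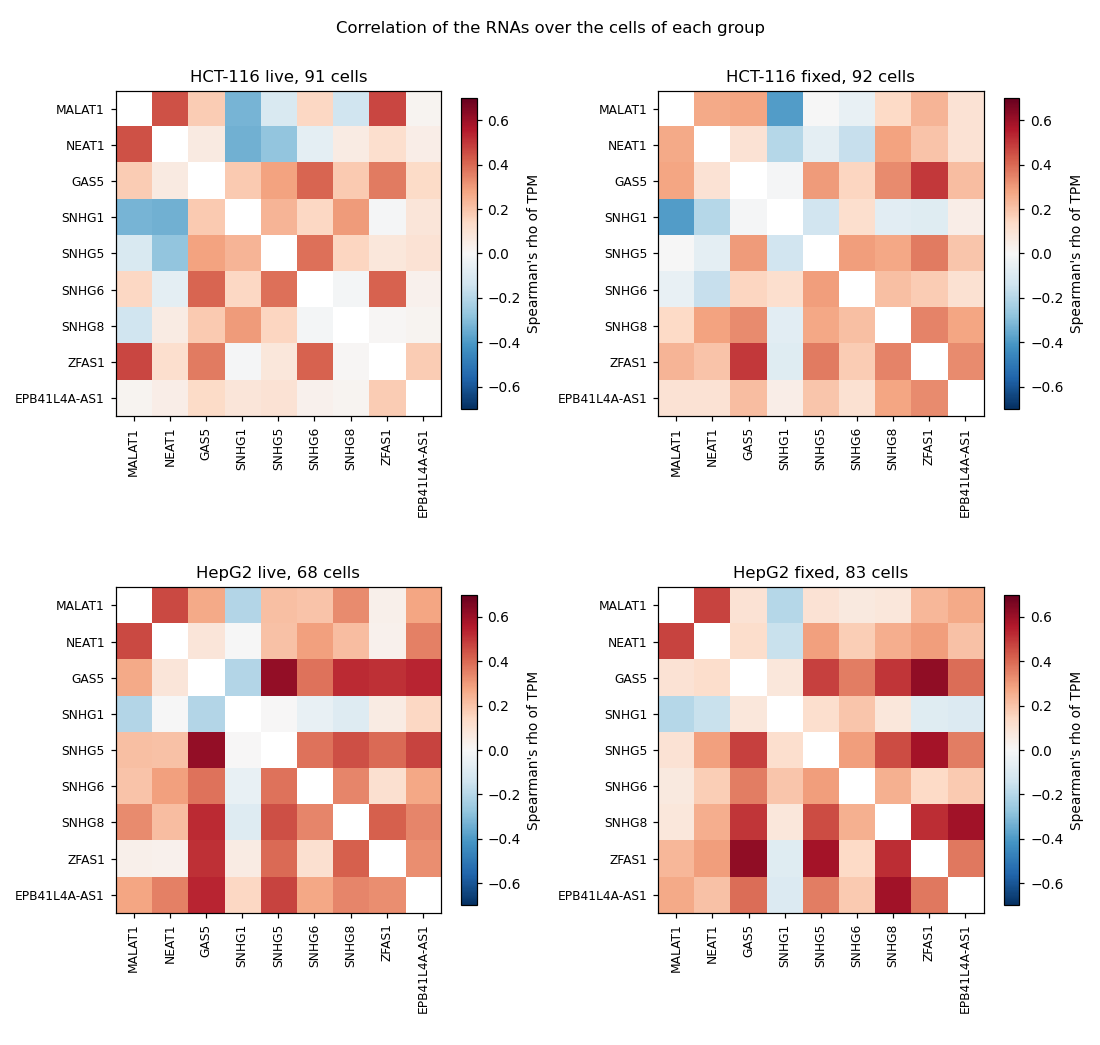
Spearman's rho of TPM over the cells of each group for MALAT1, NEAT1 and the 7 snoRNA hosts (red positive, blue negative, diagonal blank). GAS5 and ZFAS1 have 0.36 to 0.62 in all 4 groups, and SNHG1 is negative with MALAT1 in all 4 (-0.39 to -0.20).

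The genes whose pattern over cells was most like that of a member were ranked by the lowest of the 4 rho values, among 3930 or 3931 genes at 10 TPM or more in every group, except for H19. For GAS5 they were EEF1A1, a translation elongation factor (lowest rho 0.37), ZFAS1 (0.36) and LRRC75A-AS1, also named SNHG29 (0.36). For MALAT1 they were YPEL5 (0.35), the mitophagy receptor BNIP3L (0.32) and progranulin, GRN (0.24). For NEAT1 they were the stress-response gene DDIT4 (0.28), gelsolin, GSN (0.27), and MTRNR2L1 (0.27), a nuclear copy of mitochondrial sequence whose reads may come from the mitochondrial gene. H19 was compared in the 2 HepG2-labelled groups alone, over 4834 genes and by the lower of 2 rho values, because HCT-116 had 4 cells with the RNA. For H19 they were RNF181, PSME2 and EIF3K (0.38, 0.38 and 0.36).

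A list of 22 other snoRNA hosts holds lncRNAs and the protein-coding TAF1D. Of these, 19 passed 1 TPM in HCT-116 with a median log2 ratio of -0.01 and none past 2-fold. In HepG2-labelled cells 20 passed, with a median of 0.18. There 2 were past 2-fold higher, SNHG25 (1.21) and SNHG18 (1.495), beside 4.89% of all genes. The 2 highest in HCT-116 were SNHG29 with 722 TPM live and 1145 TPM fixed and SNHG25 with 332 and 605 TPM. In HepG2-labelled cells SNHG29 had 465 and 578 TPM and SNHG25 had 158.9 and 367 TPM. Of 28 further protein-coding snoRNA hosts, mostly ribosomal protein genes, none was past 2-fold in either line, and the median log2 ratios were 0.38 and 0.37. The most abundant in HCT-116 were RPL21, with 2163 TPM live and 3132 TPM fixed, and RPS12, with 2564 and 3099 TPM. In HepG2-labelled cells RPL21 had 2349 and 3172 TPM and RPS12 had 1160 and 1391 TPM.

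Other long noncoding RNAs had median log2 ratios of 0.38 over 17 of 24 RNAs in HCT-116 and 0.31 over 18 in HepG2-labelled cells. Past 2-fold higher were JPX (1.02), which acts in X inactivation, in HCT-116 and MIR22HG (1.01) and TP53TG1 (1.08) in HepG2-labelled cells, and none was 2-fold lower. Of all genes, 2.99% and 4.89% were 2-fold higher in these lines. JPX was low, with 2.32 TPM live and 4.71 TPM fixed in HCT-116. MIR22HG had 1.04 and 2.10 TPM in HepG2-labelled cells and was above 1 TPM in 28.5% of them. The highest of these other RNAs in HCT-116 were UCA1, with 42.9 TPM live and 70.6 TPM fixed, and CYTOR (listed as LINC00152), with 43.1 and 56.1 TPM. In HepG2-labelled cells they were TP53TG1, with 35.4 and 75.1 TPM, and CRNDE, with 30.8 and 37.9 TPM. None of the 10 snoRNP core proteins, which bind snoRNAs, was past 2-fold, with medians of 0.20 and 0.11. The highest in both lines was NHP2, an H/ACA protein, with 337 TPM live and 391 TPM fixed in HCT-116 and 574 and 737 TPM in HepG2-labelled cells. NOP10, its partner in the same particle, had 288 and 385 TPM in HCT-116 and 233 and 364 TPM in HepG2-labelled cells.

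Among the proteins that bind NEAT1 in paraspeckles, NONO, a core component, was near its live level, with 144.8 TPM live and 156.1 TPM fixed in HCT-116 and 107.3 and 103.4 TPM in HepG2-labelled cells. The most abundant were HNRNPA1 (735 and 988 TPM, 599 and 708 TPM) and HNRNPK (263 and 292 TPM, 276 and 297 TPM), in the order live and fixed HCT-116, live and fixed HepG2-labelled. The log2 ratio of HNRNPA1 was 0.43 in HCT-116 and 0.24 in HepG2-labelled cells, and that of HNRNPK was 0.15 and 0.10, beside a median of 0.17 and 0.15 over all genes at 1 TPM or more.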

How the data were processed

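Smart-seq2 libraries of single live and methanol-fixed cells were compared in HCT-116 and HepG2-labelled cells. Per the submitters' processing notes, reads were checked with FastQC and quantified with kallisto 0.46.0 against GRCh38; the authors used tximport for gene sums, and the gene values they deposited are TPM. The transcript values the authors deposited are CPM, not divided by length (median ratio to TPM 0.0146 for the shortest 20% of HCT-116 genes with 1 listed transcript and 2.88 for the longest). Column numbers did not match cell titles, so cells were placed by line and treatment alone; 12 labelled cells had no column. Per the methods, HepG2 was run in more than 1 experiment, and the labels do not say which cell is from which.

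Ratios are of mean TPM over cells, without a pseudocount; a call is 2-fold or more among genes with a mean of 1 TPM or more over both treatments. Each group was treated as 1 sample, so no test was run. Intervals are Clopper-Pearson (95%). The RNAs and lists were chosen with earlier results of these data known. Named genes are the 10 RNAs, the 2 highest of each list with those past 2-fold in both lines, and the 3 genes most like MALAT1, NEAT1, GAS5 and H19 by rank correlation over cells; for H19 the HepG2-labelled groups alone were used. SNHG18, SNHG25 where past 2-fold, JPX, MIR22HG, TP53TG1 and NONO were named after their values were seen. Some results for the lists are not reported here. Alternatives were medians, means of log2(TPM + 1) or log2(TPM + 0.1), a per-cell median-ratio rescaling, and 4 ribosomal RNAs removed with each cell then set to the same total. Live and fixed cells matched in depth, and the equal columns left out, were 2 further alternatives. Leaving out the 6 very similar columns was added after the data were seen. Doublets were not called, as cells were sorted singly. Python 3.11.15, numpy 2.4.6, pandas 2.3.3, scipy 1.17.1 and matplotlib 3.10.9 were used, and the scripts were tested on simulated data, 200 genes of which were changed.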

Additional observations from a re-analysis of the deposited data

How the results depend on the processing

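Over 6 alternatives in HCT-116 and 8 in HepG2-labelled cells, 11 of 19 changes kept 1 sign: those of MALAT1, GAS5, SNHG1, SNHG5, SNHG6, SNHG8 and ZFAS1 in HCT-116 and of SNHG5, SNHG6, ZFAS1 and EPB41L4A-AS1 in HepG2-labelled cells. The nuclear-retained to snoRNA host log2 ratio in HCT-116 cells was 0.043 higher after fixation with NEAT1 alone, and with medians 1 RNA, H19, passed 2-fold in HepG2-labelled cells. The percent of all genes past the limit moved with it. Higher in fixed HCT-116 cells were 0.853% at 5 TPM or more, 13.6% with no filter and 12.3% at 1.5-fold, and lower 20.6% with no filter and 16.4% at 1.5-fold. Higher in fixed HepG2-labelled cells were 2.54% at 5 TPM or more, 14.1% with no filter and 15.6% at 1.5-fold, and lower 6.32%, 23.6% and 17.6%. Of the genes past 2-fold, 25.3% were higher in HCT-116 and 10.2% without ribosomal RNA, and 33.4% and 20.03% in HepG2-labelled cells (19.1% by median ratio). The cause was not tested. Leaving out columns of equal values applies to HepG2-labelled cells alone.

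No paired analysis was possible because cell numbers shared between groups do not name the same cell and the labels do not say which HepG2-labelled cell came from which experiment, so each line and treatment was taken as 1 sample. Replicates could not be left out for the same reason. At these depths a low RNA such as EPB41L4A-AS1 can be missed in a cell that holds it. A share of cells with an RNA detected is thus a share with reads. NEAT1 was low in TPM but was detected in every cell but 1. Its shares above 1 TPM are shares of cells past that level, not shares with reads.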
